A study of Mus musculus with 32 samples.

Results

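The sites described here are stretches of the mouse autosomes that lay in peaks of trimethylated histone H3 lysine 9 (H3K9me3) in fetal germ cells of both Morc1 genotypes and, after birth, in peaks of the Morc1-null cells alone. The autosomes were divided into 1 kb bins, and a bin was called in a peak list when at least 50% of it lay in peaks of that list. Members were the bins called in both lists of E16.5 (embryonic day) and in the null lists of postnatal days 0 and 3 (P0 and P3), and not called in the heterozygous list at P0 or P3. This left 4277 bins out of 494208 autosomal bins called in at least 1 of the 8 lists. They were 1.72% of the 249156 bins called in both E16.5 lists, and they formed 3612 runs of adjacent bins. The members were chosen by the calls in the 6 lists of E16.5, P0 and P3, so those calls describe the sites and show nothing further about them. The E13.5 calls, gene position and promoter sequence were not used in the choice.

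The series profiled male germ cells of the testis (gonocytes) of mice carrying a Mvh-Venus transgene (Mvh is a germ cell gene), taken on 2 fetal (E13.5 and E16.5) and 2 postnatal days. The compared genotypes were Morc1 (+/-), called het here, and Morc1 (-/-), called KO here; the controls are thus heterozygous and not wild type, and the transgene is present in both genotypes. Of 32 samples in 16 groups of 2, 16 were H3K9me3 immunoprecipitations and 16 were immunoprecipitations of total H3, which are not analysed here. One peak list per genotype and stage held the H3K9me3 data, so there was no replicate error, no comparison between genotypes could be tested, and the depth behind a call was unknown. The lists hold positions and no gene expression, and the identity of the cells could not be checked against their markers. A bin without a call may have been below the peak caller's threshold, and the mark itself is not shown to be absent there.

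H3K9me3 is the mark of constitutive heterochromatin, and in the germ line it is known for covering transposons, satellite repeats, clustered gene families and long gene-poor stretches. Fetal male germ cells erase most of their DNA methylation and then regain it before birth, so repressive histone marks and small RNA pathways carry much of the silencing of transposons in that period. Morc1 is a GHKL-type ATPase of the Microrchidia family that is needed for transposon silencing and for spermatogenesis in male mice.

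Few promoters lay in the members, and 4 of them are printed below. They were picked by their P0 and P3 coverage, so the difference between the genotypes at those stages follows from the choice. The 250 bases upstream of a RefSeq transcript start are printed 5′ to 3′ on the gene's strand for each protein-coding gene whose promoter bin was wholly in peaks of KO and wholly outside peaks of het at both P0 and P3. Capitals mark CG dinucleotides and the letters TATAAA on either strand (TTTATA when on the other strand). The coordinates are those of the RefSeq assembly GRCm38.p6, which has the coordinates of mm10.
Klrk1: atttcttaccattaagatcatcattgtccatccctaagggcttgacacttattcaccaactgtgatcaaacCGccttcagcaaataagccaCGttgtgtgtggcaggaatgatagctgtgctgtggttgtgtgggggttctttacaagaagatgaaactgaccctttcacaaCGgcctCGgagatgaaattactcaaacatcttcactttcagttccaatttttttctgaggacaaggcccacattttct
Sult2a8: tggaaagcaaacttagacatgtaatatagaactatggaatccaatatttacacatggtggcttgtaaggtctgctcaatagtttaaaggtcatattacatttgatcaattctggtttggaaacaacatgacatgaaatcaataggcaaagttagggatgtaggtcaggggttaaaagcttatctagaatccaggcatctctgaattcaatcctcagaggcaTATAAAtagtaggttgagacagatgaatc
Olfr836: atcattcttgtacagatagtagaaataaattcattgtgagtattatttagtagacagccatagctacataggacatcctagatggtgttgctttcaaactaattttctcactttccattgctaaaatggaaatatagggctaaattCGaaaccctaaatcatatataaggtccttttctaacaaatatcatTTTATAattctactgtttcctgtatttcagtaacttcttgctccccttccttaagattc
Prl6a1: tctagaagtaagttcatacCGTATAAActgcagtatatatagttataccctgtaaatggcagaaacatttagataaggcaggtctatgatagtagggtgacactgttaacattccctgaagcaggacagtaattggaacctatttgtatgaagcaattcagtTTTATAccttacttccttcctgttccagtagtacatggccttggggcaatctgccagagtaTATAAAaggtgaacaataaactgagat
The Klrk1 window (chr6:129623865-129624114, minus strand) lies before an activating receptor gene of natural killer cells. It held 42.8% G and C and 4 CG dinucleotides, and its 1 kb bin was wholly in a peak of het and outside peaks of KO at E13.5. Sult2a8 (chr7:14438552-14438801, minus strand) encodes a sulfotransferase, its window held 0 CG dinucleotides, and its bin was wholly in peaks of both genotypes at E13.5. The window of the olfactory receptor gene Olfr836 (chr9:19120707-19120956, plus strand) held 1 CG dinucleotide, and its bin was in no peak of either genotype at E13.5. Prl6a1 (chr13:27312365-27312614, plus strand) belongs to the prolactin family of placental hormones, and its bin had 0 bp in het and 175 bp in KO at E13.5. All 4 bins were wholly in peaks of both genotypes at E16.5. At E13.5, by contrast, the Klrk1 bin was called in het alone, the Sult2a8 bin in both genotypes and the bins of Olfr836 and Prl6a1 in neither.

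Across the 4277 kb of members, the E16.5 peaks covered 92.8% (het) and 90.4% (KO). The P0 peaks covered 14.0% (het) and 87.7% (KO), and the P3 peaks 8.80% and 86.8%. These 6 values follow from the choice of bins. Within that choice, 2289 members (53.5%) had no base in a het peak at P0 and 2970 (69.4%) had none at P3. At 1962 members (45.9%) het had no base in a peak at either stage, and at 776 (18.1%) KO peaks also covered the whole bin at both stages. Around the threshold, 887 members had from 400 to under 500 bp in het peaks at their higher stage, while 1615 bins with 500 to under 600 bp were left out. For KO, 812 members had 500 to under 600 bp at their lower stage and 933 bins with 400 to under 500 bp were left out.

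The opposite pattern, kept only in het, was met by 4483 bins in 2985 runs, 1.8% of the bins called in both E16.5 lists. A further 160828 bins (64.5%) were called in all 4 postnatal lists and 21486 (8.62%) in none of them. By number, the members were therefore matched by a slightly larger set of the opposite kind. They were 27.5% of the 15578 bins called at P0 and P3 in KO alone, whatever their E16.5 state, which were 3.15% of all bins called in any list. The corresponding share for the opposite set was 24.2% of 18508 bins, themselves 3.74% of all bins called in any list. By chromosome, members made up from 1.34% (chromosome 17) to 2.06% (chromosome 12) of the bins called in both E16.5 lists, with a median of 1.72%, so that every autosome held a similar small share.

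The sites were small. Of the 3612 runs, 3063 (84.8%) were a single bin, 459 were 2 bins, 90 (2.49%) were 3 or more, and the longest was 6 bins. Runs kept only in het were longer, with 1984 of 2985 single bins (66.5%), 334 of 3 or more (11.2%) and a longest run of 8. A run's nearest neighbour lay at a median of 128.5 kb, and 486 runs (13.46%) had another within 10 kb. The peaks that held the members were larger than the runs, with a median length of 5228 bp in het at E16.5, 4216 bp in KO at P0 and 3892 bp in KO at P3.

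Most runs lay against H3K9me3 that het also had. At P0, 2362 runs (65.4%) had a het call in the adjoining bin on 1 side, 186 (5.15%) on both sides and 1064 (29.5%) on neither. At P3 the neither class held 1727 runs (47.8%). At both stages together, 838 runs (23.2%) were free-standing, with no adjoining het call at either stage, compared with 998 of 2985 runs (33.4%) of the opposite set that had no adjoining KO call. The share lying at the edge of a het call at both stages was 45.9% (1659 runs), compared with 33.6% of the opposite set at the edge of a KO call. Members were thus more often at the border of a call of the other genotype than the bins kept only in het.

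Calls around the runs were counted in all 8 lists. In the first bin on either side of a member run, 37.8% were het calls and 53.7% KO calls at P0, against 27.4% and 50.5% at P3. At 10 kb the values were 24.04% and 26.5% at P0 and 20.1% and 23.6% at P3, so that the genotypes lay within 4 percentage points of each other. At E16.5 the order was the other way, with 65.9% of first bins called in het and 60.6% in KO. At E13.5, which the choice did not use, KO was above het in the first bin (32.8% and 27.5%) and at 10 kb (19.4% and 17.3%). First bins of the opposite set had the same orders, with 56.0% het and 49.2% KO at E16.5, and 28.6% and 32.1% at E13.5. Over the autosomes, the KO list had 1.14 times the called bins of het at E13.5 and 0.919 times at E16.5. At P0 and P3 the ratios were 1.05 and 1.09.

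**Figure D1:**
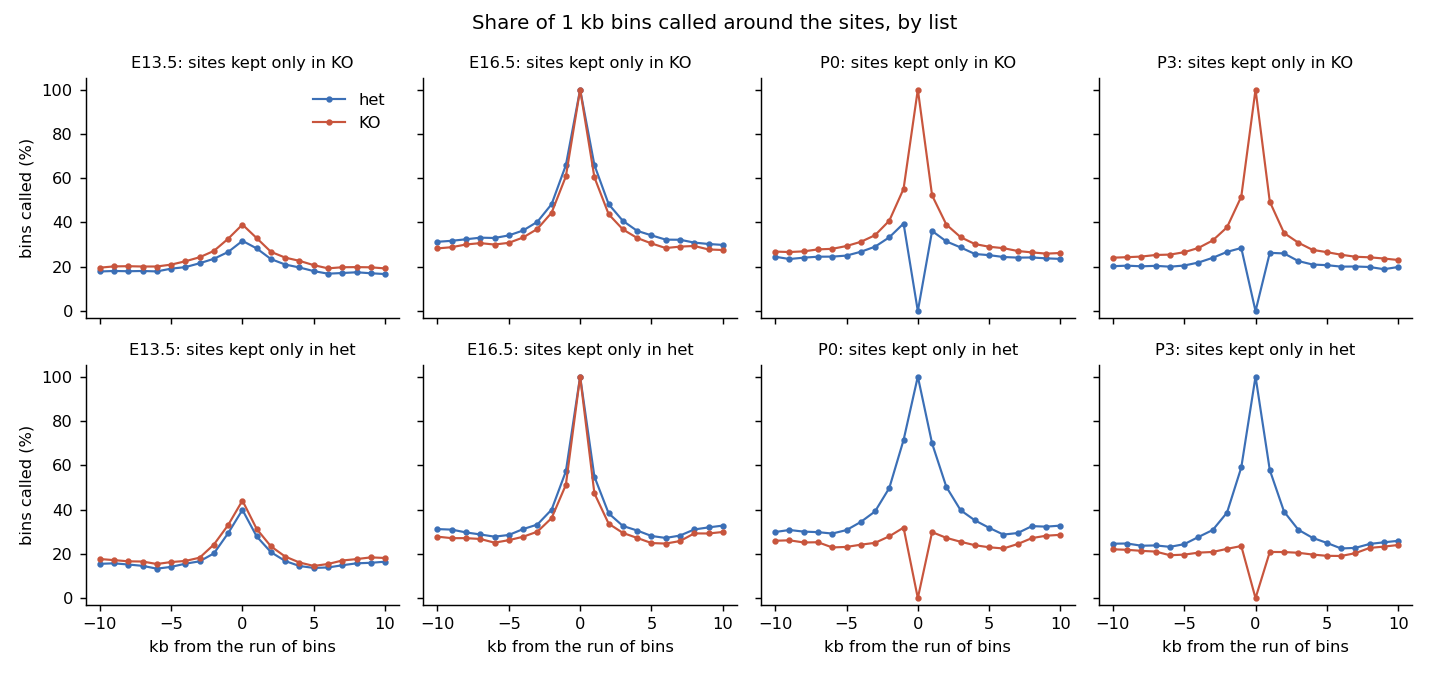
Percent of 1 kb bins called (vertical axis) by distance from the run in kb (horizontal axis), for runs kept only in KO (top row) and only in het (bottom row), at the 4 stages; blue is het and red is KO. Around the runs kept only in KO, the P0 and P3 lines are farthest apart next to the run (37.8% het and 53.7% KO at P0) and close by 10 kb.

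At E13.5 the members were less often called than embryonic sites in general, and more often in KO than in het. The het list called 1356 members (31.7%, 95% Wilson interval 30.3 to 33.1) and the KO list 1670 (39.0%, 37.6 to 40.5). Over all bins called in both E16.5 lists the shares were 54.9% in het and 59.4% in KO. Such intervals cover counting error only, and neighbouring bins are not independent. Of the members, 1100 were called in both E13.5 lists (25.7%) and 2351 (55.0%) in neither, compared with 50.8% in both and 36.4% in neither over all bins. The E13.5 list of KO was the longer one, with 1.14 times the autosomal bins of het, and this bears on every value that sets KO against het at that stage.

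Members called at E13.5 in KO alone numbered 570 (13.3%, 12.3 to 14.4), against 8.65% of all bins called in both E16.5 lists. Members called in het alone numbered 256 (5.99%), against 4.16% of all bins. The ratio of these counts was 2.23 for the members and 2.08 for all bins, 1.74 for the bins kept only in het, 1.90 for the bins kept in both and 2.49 for the bins kept in neither. By this ratio the members' lean towards KO was between those of the other sets. Their KO share was 7.34 percentage points above their het share, the largest such difference of the sets. It was 4.19 points for the bins kept only in het, 3.39 for those kept in both, 6.75 for those kept in neither and 4.49 for all bins. The KO share was higher on 18 of 19 autosomes, chromosome 18 being the exception (27.3% in het and 26.6% in KO), and it was higher on all 19 for each other set and for all bins called in both E16.5 lists.

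Bins kept only in het were called at E13.5 more often than the members in both genotypes, at 39.8% (38.4 to 41.3) in het and 44.0% (42.6 to 45.5) in KO. The members were below them on 19 of 19 autosomes in het and on 17 in KO. Bins kept in both genotypes had far higher E13.5 shares (64.8% in het and 68.2% in KO), and bins kept in neither had 27.0% and 33.8%. In E13.5 calls the members were therefore nearer to the bins that no postnatal list called than to those that every postnatal list called. Longer runs had more E13.5 calls: the KO share was 35.8% in single-bin runs, 44.99% in runs of 2 and 53.7% (48.0 to 59.3) in runs of 3 or more, beside 29.2%, 37.5% and 39.9% in het.

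**Figure D2:**
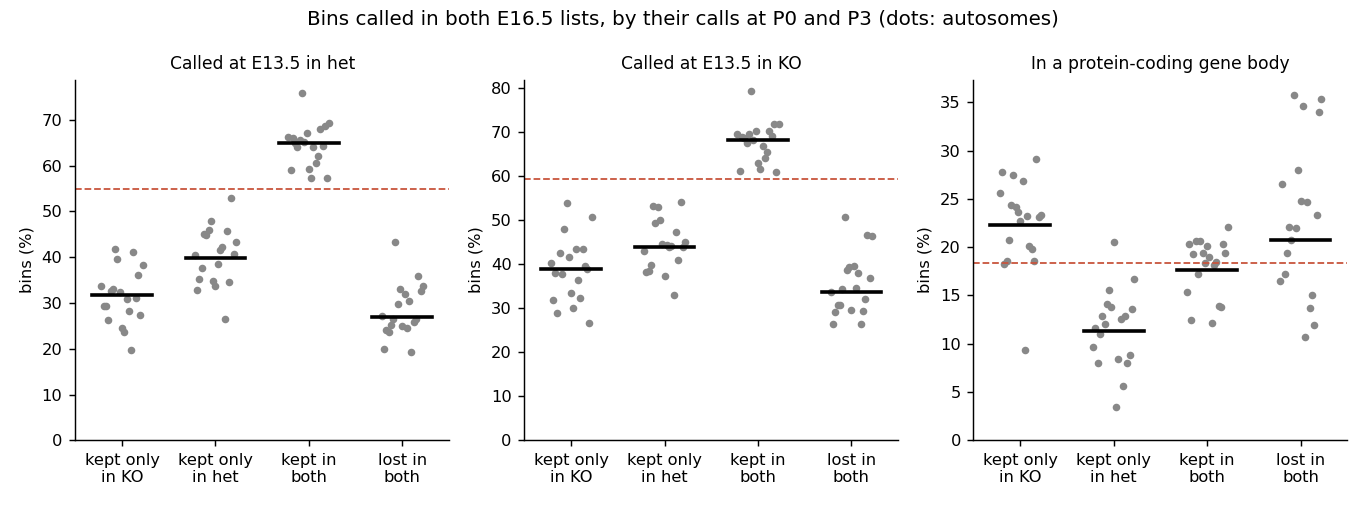
Percent of bins (vertical axis) called at E13.5 in het and in KO and lying in protein-coding gene bodies, for the 4 sets of embryonic sites; each dot is 1 of 19 autosomes, the black bar is the value over all bins of the set, and the dashed line is all bins called in both E16.5 lists. The members sit below the dashed line at E13.5 (31.7% in het, 39.0% in KO) and above it for gene bodies (22.3%).

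Members lay in protein-coding gene bodies more often than the opposite set. The midpoint was within a gene for 953 members (22.3%, 21.1 to 23.6) and for 509 bins kept only in het (11.4%, 10.46 to 12.3). The share was 17.6% for the bins kept in both, 20.7% for those kept in neither and 18.3% for all bins called in both E16.5 lists. Members exceeded the opposite set on 19 of 19 autosomes, the bins kept in both on 17, all bins on 15 and the bins kept in neither on 9. The contrast was thus mainly with the sites kept only in het, and members did not stand apart from sites kept in neither genotype.

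Peak length moved with gene position, and the contrast was present in each length class. In het peaks of E16.5 under 2 kb, 33.7% of members and 17.2% of the opposite set were in gene bodies. In peaks of 2 to 5 kb the shares were 29.4% and 14.4%, and in peaks of 5 kb or more they were 14.1% and 7.44%. The E13.5 calls in KO were likewise lower in members in each class (29.6%, 35.1% and 44.6%, against 33.8%, 38.7% and 50.9%). Free-standing runs had the higher gene body share among the members, at 30.1% (27.3 to 33.1) of 973 bins, and bins next to a het call at both stages had 18.6% (17.0 to 20.4) of 1999 bins.

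A gene end within 1 kb was found for 63 members (1.47%), against 1.5% of all bins called in both E16.5 lists. The median distance to the nearest end of a protein-coding gene was 149.6 kb, compared with 236.1 kb for the bins kept only in het. Long non-coding RNA genes were touched by 345 members (8.07%), against 7.04% of all bins, and pseudogenes by 67 (1.57%), against 1.8%. No member overlapped a microRNA or transfer RNA gene, which only 49 and 10 of the 249156 bins called in both E16.5 lists did.

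The 12 longest runs were all more than 3 kb long and all but 1 lay between protein-coding genes. The longest covered 6 kb inside Csmd1, at chr8:16632001-16638000. Csmd1 encodes a large membrane protein with CUB and sushi domains that is best known from brain and from control of complement. Of its 6 kb, 3858 bp in het against 4119 bp in KO lay in peaks at E13.5, and 6000 against 5881 bp at E16.5. At both P0 and P3 it was 0 against 6000 bp. A 5 kb run at chr1:26745001-26750000 lay between 4931408C20Rik and Gm597 and was wholly in peaks of all lists except het at P0 and P3, where it had 0 bp. These sites had been in peaks from the first stage sampled.

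Other long runs had fewer or no E13.5 calls. The run at chr14:94553001-94558000, between the protocadherin gene Pcdh9 and Spertl, had 0 bp in both E13.5 lists and 515 bp in het at P0. The run at chr9:93222001-93227000 lay between Plod2, a collagen lysyl hydroxylase gene, and Dipk2a, and had 2083 bp in het and 3306 bp in KO at E13.5. At chr15:29175001-29180000, between the dynein gene Dnah5 and the delta-catenin gene Ctnnd2, E13.5 coverage was higher in het (3657 bp) than in KO (1405 bp).

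A group of 3 neighbouring 4 kb runs on chromosome 1, to either side of Gm597, had 0 bp in het at E13.5 and 4000, 1260 and 1517 bp in KO (chr1:28608001-28612000, chr1:28747001-28751000 and chr1:28939001-28943000). The remaining runs of the 12 lay near Cdh7 on chromosome 1, Naaladl2 on chromosome 3, Fam20c on chromosome 5 and Grm7 on chromosome 6. Of all 12, 7 had more E13.5 coverage in KO, 2 more in het and 3 equal amounts, and 8 had 0 bp in het at both P0 and P3. Of the 90 runs of 3 or more bins, 47 had more E13.5 coverage in KO, 15 more in het and 28 equal amounts.

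**Figure D3:**
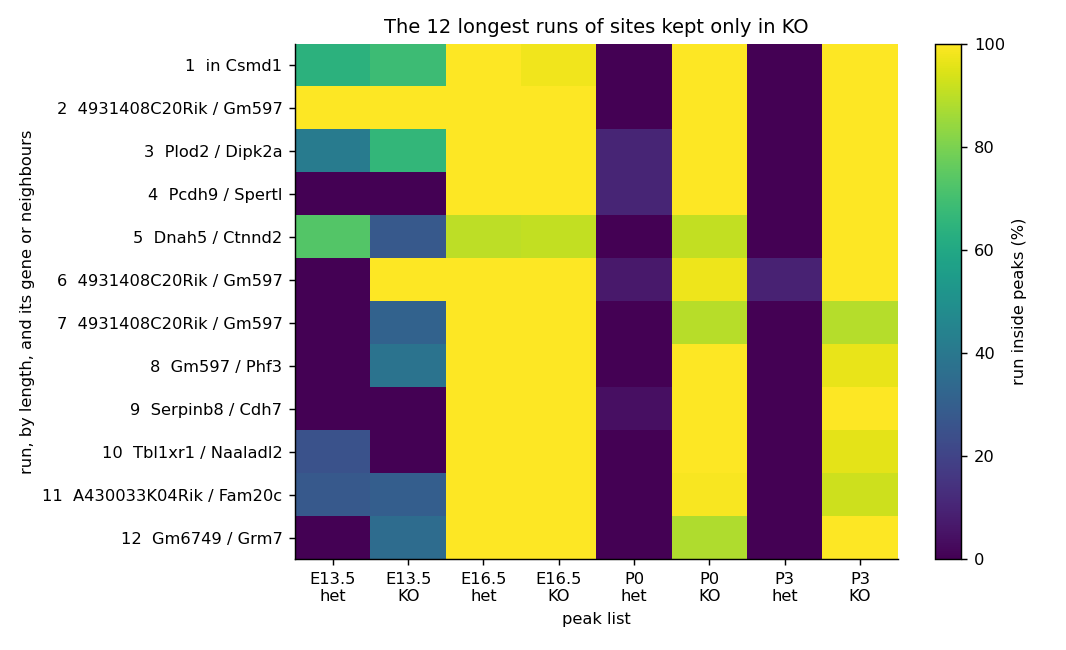
Percent of each of the 12 longest runs (rows) that lay inside peaks of each of the 8 lists (columns, het and KO at 4 stages), from 0 to 100. The het columns of P0 and P3 are at or near 0 by the choice of members, and the E13.5 columns range from 0 to 100 in both genotypes.

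Most members lay outside genes, and those inside were spread over many. The 15 genes with most members held 141 of the 4277 bins. Protein-coding genes touched by at least 1 member numbered 680 of 20665 (3.29%), and 304 were touched by a bin kept only in het. Of 216 genes of 500 kb or more, 119 (55.1%) were touched, of 2097 genes of 100 to 500 kb 291 (13.9%), and of 18352 shorter genes 270 (1.47%). The counts for the opposite set were 84, 125 and 95. Per 100 bins called in both E16.5 lists, the 3 length classes held 2.32, 2.13 and 1.91 members, close to the 2.11 of all protein-coding genes, so the touched shares largely followed how many embryonic bins a gene has. Csmd1 and Dpp10 held 29 members each, Khdrbs2 15, Alk and Luzp2 8 each, and Cdh18 and Fstl5 7 each. These were followed by Naaladl2 with 6, by Caln1, Grm7, Nrg3 and Ptprd with 5 each, and by Bank1, Clstn2 and Dnah5 with 4 each.

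The share of a gene's embryonic bins that were members ranged widely among these 15 genes, which were picked for holding members. It was 1.97% in Naaladl2, 2.27% in Fstl5, 2.45% in Ptprd and 2.94% in Nrg3, not far from the 1.72% over all autosomes. Members were 7.71% of the E16.5 bins of Csmd1, 8.92% of those of Dpp10, 6.79% of those of Khdrbs2 and 10.96% of those of Alk. Bins kept only in het were 1.60%, 0.923%, 2.26% and 1.37% of them. Naaladl2 and Ptprd, by contrast, held 7 bins of the opposite set each, more than their 6 and 5 members. The highest shares of the 15 were 17.4% in Dnah5, 16% in Clstn2 and 11.1% in Bank1. These 3 shares rested on 4 members each, among 23, 25 and 36 embryonic bins.

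In Csmd1, het against KO coverage was 342 against 363 kb at E13.5, 551 against 387 kb at E16.5, 323 against 403 kb at P0 and 320.0 against 463 kb at P3. KO was thus below het at E16.5 and above it at the other stages. Outside the member bins the order was the same, with 523 against 359.5 kb at E16.5 and 319.9 against 435 kb at P3, a P3 difference of 115 kb. The 29 members of Csmd1 were therefore the smaller part of the P3 difference over the gene.

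Dpp10, which encodes an auxiliary subunit of Kv4 potassium channels, had 236 kb in het against 237 kb in KO at E13.5. Its coverage was 425 against 354 kb at E16.5, 214 against 285 kb at P0 and 176 against 268 kb at P3. Khdrbs2, a gene of an RNA-binding splicing regulator, had 286 kb in het against 235 kb in KO at E16.5, 142 against 136 kb at P0 and 77.8 against 162 kb at P3. Its difference was thus present at P3 and not at P0, and 70.2 kb of it at P3 lay outside member bins. Alk, a receptor tyrosine kinase gene, differed from these in E13.5 coverage, with 66.9 kb in het and 155 kb in KO.

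Over the 15 genes, KO coverage exceeded het coverage in 12 of them at E13.5, in 1 gene at E16.5, in 11 genes at P0 and in 14 genes at P3. The exception at P3 was Cdh18, a cadherin gene, with 112 kb in het and 111 kb in KO. With member bins left out, the counts were 13, 2, 9 and 14. Part of this order was general: KO exceeded het in 56.9% of the 6024 genes with an embryonic bin at E13.5, and the E16.5, P0 and P3 shares were 30.2%, 70.8% and 64.4%. Among the 216 genes of 500 kb or more the shares were 76.4%, 9.72%, 73.1% and 81.0%. The 15 genes' counts at P0 and P3 follow in part from their choice, and their E13.5 count of 12 was near the share among long genes.

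**Figure D4:**
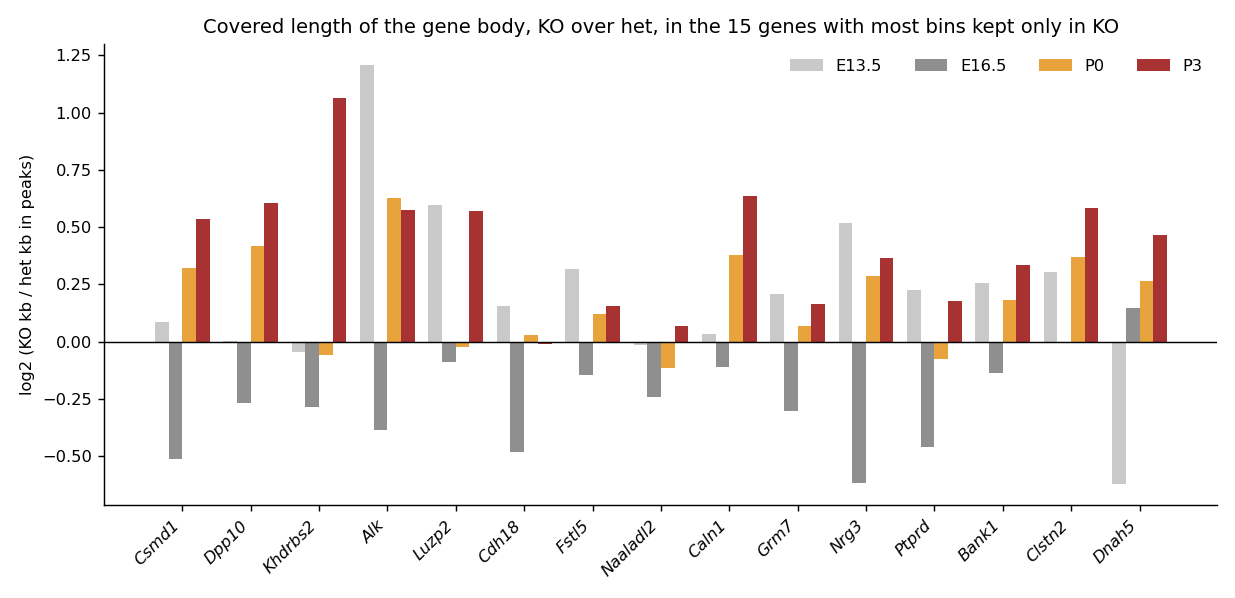
Log2 ratio of the kb covered by peaks in KO to the kb covered in het over the gene body (vertical axis), for the 15 genes with most members (horizontal axis) at the 4 stages (bars). At E16.5, 14 of 15 genes lie below 0, and at P3, 14 of 15 lie above 0.

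The 5 windows of 1 Mb with the most members were examined by position, and 3 of them overlapped Dpp10, Csmd1 and Khdrbs2. The Dpp10 window (chr1:124265001-125265000) held 35 members among 577 embryonic bins (6.07%) and 2 bins kept only in het. Dpp10 ends at position 124845815, and some of these members lay beyond it. The Csmd1 window (chr8:16386001-17386000) held 29 members among 296 (9.80%) and 2 of the opposite set. The Khdrbs2 window (chr1:31362001-32362000) held 27 among 619 (4.36%) and 10 of the opposite set. Khdrbs2 begins at position 32172602, and most of these members lay before it, outside the gene. The other two held no gene body with a member: chr1:27949001-28949000 had 32 members among 535 (5.98%), and chr16:82481001-83481000, between Ncam2 and Mrpl39, had 27 among 699 (3.86%). The chromosome 16 window also held 17 bins kept only in het, or 2.43% of its embryonic bins, beside 2.31% over all of chromosome 16.

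Of the 6 gene lists, that of synaptic adhesion and neuronal cell surface genes held most members. Of 57 genes on that list, 36 were touched by 133 members, and 28 by 88 bins kept only in het. Per 100 embryonic bins in their bodies these genes had 3.21 members, beside 2.11 in all protein-coding genes and 1.91 in genes of 500 kb or more outside the list. Without Csmd1 and Dpp10 the value was 2.18, close to that of all genes, with 34 of 55 genes touched. That subset and the set of long genes outside the list were formed after the data were seen. The list's excess of members thus lay in Csmd1 and Dpp10, whereas its share of opposite bins was above the general one with or without them.

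Genes of H3K9 methylation and its readers held no members (0 of 27 measured, with 34 embryonic bins), nor did genes of the piRNA pathway (0 of 27, with 50 embryonic bins), which makes the small RNAs that guide transposon silencing in male germ cells. At 2.11 members per 100 embryonic bins, both lists had too few such bins to tell a zero from the general share. Of 37 germline and meiosis genes 1 was touched (2.70%, beside 3.29% of all protein-coding genes), namely Zbtb16, a factor of spermatogonial stem cells. That list had 20 embryonic bins, too few to set its 1 member against the general share. Zbtb16 coverage in het against KO was 3.93 against 5.92 kb at E13.5, 7.74 against 9.42 kb at E16.5, 7.95 against 18.9 kb at P0 and 12.6 against 13.9 kb at P3. Of 20 markers of somatic testis cells 1 was touched (5%), namely Cdh5, the endothelial cadherin gene, at its single embryonic bin. The somatic list had 17 embryonic bins, again too few. Cdh5 had 0 kb in both genotypes at E13.5, 1.61 kb in het against 1.55 kb in KO at E16.5, 0 against 1.99 kb at P0 and 0 against 1.001 kb at P3. Of 42 imprinted genes, Snrpn and Kcnq1 held 1 member each among 195 and 46 embryonic bins. The imprinted list thus had 4.76% of its genes touched and 0.581 members per 100 embryonic bins.

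Among gene families, the natural killer receptor genes named Klr held members in 5 of 29 genes (Klrk1, Klri1, Klri2, Klra5 and Klra4), with 11 bins, and held no bin kept only in het. Their 186 embryonic bins were too few for that zero to set them apart at the 1.10 opposite bins per 100 of all genes. By nearest gene, 18 members and 4 opposite bins fell to Klr genes. Klrk1 (chr6:129610323-129623903) was covered over 6.09 kb in het against 5.05 kb in KO at E13.5 and over 11.2 against 10.1 kb at E16.5. At P0 it was covered over 0 kb in het and 4.04 kb in KO, and at P3 over 0 and 3.05 kb. Of its 10 embryonic bins 3 were members and 6 were called in no postnatal list. The pheromone receptor family Vmn2r held members in 12 of 123 genes and opposite bins in 4. By bins it had 14 members and 11 of the opposite set, and its 1.35 members per 100 embryonic bins were below the 2.11 of all genes, whereas the Klr genes had 5.91.

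The olfactory receptor family Olfr held members in 13 of 1104 genes (15 bins, 1.75 per 100 embryonic bins) and the zinc finger family Zfp in 5 of 391 (6 bins, 0.908 per 100). The transporter family Slc held members in 20 of 376 genes (2.64 per 100) and opposite bins in 5, and the Tmem family in 7 of 231 (2.997 per 100) and 1. No gene named Ugt, Def or Hox held a member (0 of 22, 73 and 39), but these families had only 88, 42 and 1 embryonic bins, too few for the zeros to set them apart at the general 2.11 per 100. Genes of the Klr, Vmn, Olfr and Zfp families have close copies among which short reads can be split, so calls at single members of them are uncertain. Of the genes with an end within 1 kb of a member, Olfr836 had a count of 5. Vmn1r214, a pheromone receptor gene, and Olfr1480 had counts of 3 each. In these counts a bin near both ends of a short gene enters once per end, so the distinct bins are fewer.

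Of 31396 autosomal promoter windows of 250 bases, 33 (0.105%) were centred in members, which was 2.53% of the 1304 windows centred in bins called in both E16.5 lists. They came from 32 genes, and 18 of these windows belonged to 17 protein-coding genes. These were the olfactory receptors Olfr1030, Olfr669, Olfr836, Olfr1480 and Olfr1502, the bitter taste receptor Tas2r114, the pheromone receptor Vmn2r106, the secreted peptide gene Esp24, Klrk1, Prl6a1, Sult2a8, the transporter Slco1a1 and the protease inhibitor Serpinb9c. The others were Acmsd, an enzyme of tryptophan breakdown, Lrrc51, Gm4868 and Gm33084. The remaining 15 windows belonged to long non-coding RNA genes.

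These windows were poor in CG, as in the 4 printed above. Their median G and C content was 42.0% and their median number of CG dinucleotides was 1, compared with 52.4% and 6 over all autosomal windows. At least 10 CG dinucleotides were found in 1 of 33 windows (3.03%) and in 38.3% of all windows. No CG was found in 10 of 33 (30.3%), compared with 7.64% of all windows and 27.9% of the windows in bins called in both E16.5 lists. The letters TATAAA occurred on either strand in 8 of 33 (24.2%), compared with 12.4% of all windows and 28.8% of those in embryonic bins. In these features the members' promoters were close to those of embryonic sites in general.

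Morc1 itself (chromosome 16) had no bin called in both E16.5 lists and no member. Peaks covered 2.002 kb of the gene in het against 1.56 kb in KO at E13.5, 1.62 against 0 kb at E16.5, 3.47 against 0 kb at P0 and 3.21 against 1.001 kb at P3. These lengths do not check the genotype, since the labels do not place the deletion.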

How the data were processed

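H3K9me3 chromatin immunoprecipitation sequencing was done on 16 samples, 2 per genotype and stage, from formaldehyde-fixed, sonicated chromatin, per the labels' protocols. The authors deposited 1 peak list per group, with 3 columns (chromosome, start and end in base pairs) and no score, height or p-value; each replicate's own calls are not analysed here, and neither are the H3 samples. The submitters' processing notes name bcl2fastq 2.20, cutadapt 1.18, Bowtie2 2.3.4.1, deepTools 3.5.0, HOMER 4.10 and build mm10, without roles; the peak thresholds are not given in the sources used here. The 8 lists held between 50191 and 89020 autosomal peaks, most often 1001 bp long.

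Each list was intersected with 1 kb bins using Python 3.11.15, numpy 2.4.6 and pandas 2.3.3, and the code was first tested on simulated data. Shares have 95% Wilson intervals. Genes and promoter windows came from RefSeq tables of GRCm38.p6. Text names the 12 longest runs, the 15 genes with most members, up to 10 genes with members at an end, genes of 6 lists with a member, the 5 densest 1 Mb windows and Morc1; the genes of all protein-coding promoter windows and the families' members were named after their values were seen. The members and lists were chosen with earlier results of these data known. Alternatives varied the call threshold, the bin grid, peak length, gap filling and run type.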

Additional observations from a re-analysis of the deposited data

Results flagged for a closer look

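Chromosome X was outside the autosomal choice of sites, yet it held 199 bins with the same pattern of calls, 1.69% of its 11810 bins called in both E16.5 lists, which is close to the 1.72% of the autosomes. The opposite pattern, kept only in het, was met by 301 bins of chromosome X (2.55%), a larger share than the 1.8% of the autosomes. At E13.5, the het list called 24.1% of the 199 bins and the KO list 27.1%, beside 31.7% and 39.0% of the autosomal members. All bins of chromosome X called in both E16.5 lists were also lower at E13.5 (43.9% and 49.4%) than those of the autosomes (54.9% and 59.4%). What chromosome X shares with the autosomal sites was not tested.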

How the results depend on the processing

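No paired analysis was possible because each group has a single peak list, which carries no replicate and for which the labels do not state how the 2 samples were combined; leaving out a replicate was not run for the same reason. Of 79 values of 8 results under 10 alternatives (7 planned, 3 chosen after seeing the data), 51 stayed within their counting interval or 1.5 times the count, 28 moved and 0 reversed. Only a difference could reverse, namely KO minus het at E13.5 and members minus the opposite set in gene bodies. Counts and plain shares could not. Members numbered 1962 with no het base at P0 and P3, 973 in free-standing runs and 1214 in runs of 2 or more bins. The opposite set numbered 3044 with no KO base at those stages, 1557 in free-standing runs and 2499 in runs of 2 or more bins. The E13.5 KO share was 40.9% with a 25% call threshold, 40.5% with the grid shifted by 500 bp, 36.5% with peaks of at least 2 kb, 42.4% with no het base and 47.1% in runs of 2 or more bins. The het share was 27.5%, 33.6% and 38.1% under the last 3, and the difference was 8.98 points with peaks of at least 2 kb and 9.06 in runs of 2 or more bins. The gene body share was 24.96% with the 25% threshold, 20.1% with peaks of at least 2 kb, 30.1% in free-standing runs and 16.7% in runs of 2 or more bins, and its excess over the opposite set was 12.9, 9.55, 16.4 and 7.48 points. Runs of 3 or more bins numbered 140 with a 75% threshold, 291 with peaks of at least 2 kb, 40 with no het base, 286 with gaps up to 3 kb filled and 14 among free-standing runs. Filling gaps up to 1 kb changed nothing, since the shortest gap between peaks was 1499 bp. Its values were thus bound to be among the 51 that stayed. Apart from settings that leave fewer bins, the cause of these moves was not tested. With unknown depth, a missing call cannot be given a limit.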

Other observations

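In all, 20 runs had 4 or more bins, of which 12 are described above in order of length and position. Each of the other 8 was covered in KO at E13.5, and none had more coverage there in het than in KO. A run at chr8:16471001-16475000, also in Csmd1, and a run at chr12:114265001-114269000 were wholly in peaks of both genotypes at E13.5. A run at chr8:50781001-50785000 had 0 bp in het and 4000 bp in KO at E13.5, and 62 bp in het at P0. A run at chr17:72429001-72433000, in Alk, had 1815 bp in het and 4000 bp in KO at E13.5. These runs were named after their values were seen.

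The protocadherin genes named Pcdh were touched by members in 14 of 67 cases, but only 5 distinct bins were involved, because the Pcdha genes share their later exons and overlap each other. With shared bins counted once per gene, they had 3.05 members and 2.84 opposite bins per 100 embryonic bins. All protein-coding genes had 2.11 and 1.10. Of the cytochrome genes named Cyp, 3 of 101 held a member, all in the Cyp2c group (Cyp2c39, Cyp2c67 and Cyp2c37). The family had 3 members among 633 embryonic bins, or 0.474 per 100, below the 2.11 of all protein-coding genes. It held 0 bins of the opposite set. The Cyp2c genes are related copies, and short reads may be shared between such loci.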
